A study of Rattus norvegicus with 18 samples.

Results

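The ATF4 amino acid response genes were taken here as a list of 40 genes, Atf4 itself among them. They belong to the response that the transcription factor ATF4 drives when cells lack amino acids or are stressed. Of these, 35 had a symbol in the deposited peak list and could be followed, out of 17003 genes with a symbol, and 5 were not found there (Atf5, Shmt2, Asns, Aldh18a1 and Cth). The 35 genes held 205 of the 215951 deposited peaks. The set was proposed with the RNA change of these samples in view. The RNA values below therefore describe the members and support nothing by themselves. Only genes named in the deposited hMeDIP peak list could be followed, so the DNA assay had a part in which members remained.

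ATF4 is the effector of the integrated stress response. Kinases that sense missing amino acids, misfolded protein, viral RNA or lack of heme phosphorylate the translation factor eIF2, which lowers protein synthesis as a whole and at the same time raises translation of the Atf4 transcript, so that the activity of ATF4 need not follow its RNA. ATF4 pairs with C/EBP proteins on a composite DNA element and raises genes that import amino acids, make serine, glycine, proline and asparagine, and charge tRNAs. Myelinating glia build large amounts of membrane lipid and protein, and vitamin C is a cofactor of the collagen prolyl hydroxylases and of the TET enzymes, which oxidise 5-methylcytosine in DNA to 5-hydroxymethylcytosine.

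The cells were primary rat Schwann cells, the glia of peripheral nerve, taken at passage 3 and grown without added vitamin C (control) or with it (VitC). The labels give no dose, time, strain or genotype. Nor do they tell whether the replicates stem from different animals or dishes, so the spread between them may be technical. RNA depleted of ribosomal RNA, DNA precipitated with an antibody to 5-hydroxymethylcytosine (hMeDIP) and unprecipitated input DNA were sequenced in 3 control and 3 VitC libraries for each kind, 18 in all, with 23381814 to 33173282 reads in genes per RNA library, 24020306 to 39899445 reads in peaks per hMeDIP library and 7201638 to 9521037 per input library. In hMeDIP, replicates 1 and 3 of each group differed by less than the sampling noise. Chi-square per degree of freedom was 0.96 in control and 0.9 in VitC, against 1.08 to 1.47 for the other pairs. Replicates 1 and 3 were therefore summed and counted as 1 sample, which leaves n = 2 per group. When hMeDIP replicate 2 is left out below, its group is left with 1 summed sample, whereas without replicate 1 or 3 it keeps 2. In input every pair of a group differed by no more than sampling noise (0.98 to 0.99), so no pair stood out there, and the 3 libraries were kept as samples although they too may be repeats of 1 sample. In RNA, VitC replicate 1 stood apart from VitC replicates 2 and 3 (29.28 and 40.98, against 5.54 between those), and 44.9% of its reads aligned at several places, against 34.4% and 32.7% in the other treated libraries.

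The composite element bound by ATF4 and C/EBP proteins was looked for as the 8 letters TGATGNAA, on either strand, in the RefSeq promoters of the rat build GRCr8, which span 250 bases before to 50 after each gene's start. Promoters were matched for 31 of the 35 members, through older symbols for 6 of the tRNA synthetases. Of these 31, 9 (29%) held the letters, against 3.98% of all 33469 promoters and 4.16% of all 27457 gene symbols searched. The members were listed as genes of the ATF4 response, so this share is no independent support. Of the members whose RNA passed the threshold upward, 8 of 25 held a match, and of the 4 that did not pass it, 0. The latter are too few for a comparison, and Nupr1, not tested in RNA, also held a match. The stretches below show matches that lie before the start, for 7 of these 9 members, 5′ to 3′ along the gene, with the matched letters in capitals. A match describes the sequence and does not show a bound site.
Trib3, chr3:161275534-161275590, minus strand: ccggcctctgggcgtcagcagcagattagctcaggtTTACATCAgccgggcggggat
Chac1, chr3:126795928-126796007, plus strand: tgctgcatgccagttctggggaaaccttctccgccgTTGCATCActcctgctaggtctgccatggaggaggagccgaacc
Pycr1, chr10:106420900-106420979, minus strand: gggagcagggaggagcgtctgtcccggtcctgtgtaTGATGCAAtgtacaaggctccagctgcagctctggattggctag
Slc7a1, chr12:11664422-11664487, plus strand: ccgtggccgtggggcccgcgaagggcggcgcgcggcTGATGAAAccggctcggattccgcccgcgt
Slc1a4, chr14:98761754-98761812, minus strand: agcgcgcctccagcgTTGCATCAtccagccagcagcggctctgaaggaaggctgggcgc
Aars (Aars1), chr19:55908334-55908413, plus strand: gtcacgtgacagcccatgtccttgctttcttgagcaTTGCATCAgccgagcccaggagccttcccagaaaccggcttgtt
Mars (Mars1), chr7:65023754-65023806, minus strand: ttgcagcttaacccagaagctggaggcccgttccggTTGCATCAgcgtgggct

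The first matched base lay 21 bases before the start in Trib3, 167 in Chac1, 131 in Pycr1, 30 in Slc7a1, 235 in Slc1a4, 112 in Aars and 17 in Mars. The other members with a match were Nars and Nupr1. In Trib3, Chac1, Slc1a4, Aars and Mars the letters read on the opposite strand, so TTGCATCA and TTACATCA are the element in reverse. Of the fixed lists set beside the members, 3 of 7 other cytosolic tRNA synthetases held a match (Cars, Tars and Yars) and 0 of 11 mitochondrial ones did. So did 4 of 16 other ATF4 targets (Jdp2, Herpud1, Slc38a1 and Fgf21), of which Slc38a1 was lower in RNA and Fgf21 not called. A match was also held by 2 of 13 sensors and eIF2 genes and 1 of 5 other proline, glutamate and aspartate enzymes. The lists of other serine, glycine and folate enzymes, NRF2 targets and chaperones held 0.

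In RNA, 34 of the 35 members had enough reads to be tested, and 28 were higher with vitamin C, 2 were lower and 4 did not pass the threshold (edgeR quasi-likelihood test, adjusted p under 0.05 over all genes). Of all 12925 genes tested, 19.1% were higher and 21% lower, a split that moved to 1642 higher and 1117 lower genes from 2473 and 2715 when libraries were scaled by all counted reads. Under that scaling 20 members were higher and 1 lower, where 12.7% of all genes were higher and 8.61% lower. The median log2 change, vitamin C over control, was 0.75 over the members tested and -0.01 over all genes tested. The control and VitC libraries did not overlap for 31 of the 34 members, as for 54.7% of all genes. Levels are CPM (read counts scaled to library size and TMM factors, taken over reads in genes). They can be compared between libraries but not between genes, since gene lengths were not used here. In these bulk samples, fewer cells of a type and less RNA per cell cannot be told apart.

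**Figure D1:**
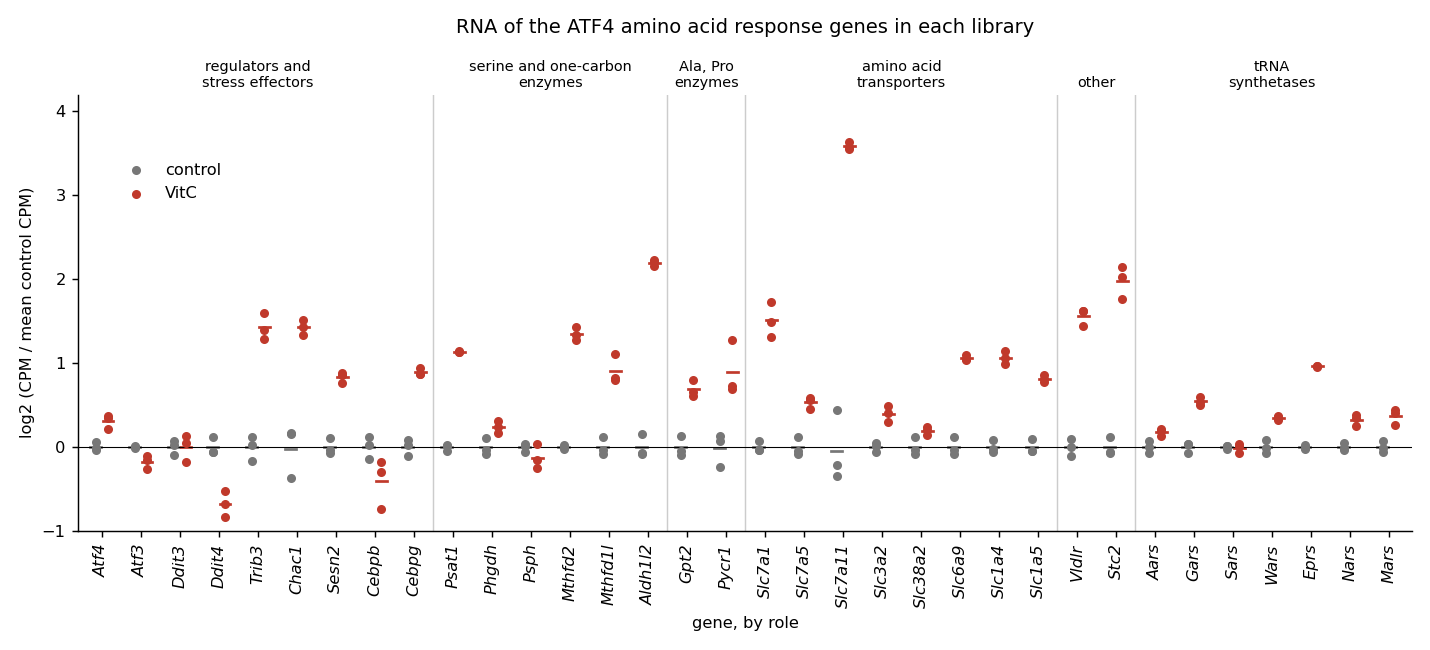
RNA of each tested member in the 3 control (grey) and 3 VitC (red) libraries, as log2 of the CPM over the mean control CPM, with short lines at group means of these log2 values and genes grouped by role. Slc7a11 lies farthest above its controls, Ddit4 farthest below, and Ddit3, Psph and Sars overlap between groups.

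Among the regulators and stress effectors, 5 of 9 tested members were higher and 2 lower. Atf4 itself was measured at 315, 337 and 320 CPM in the control libraries and 377, 413 and 418 CPM with vitamin C, a log2 change of 0.31 ± 0.06 (SE, n = 3). Every VitC library lay above every control, by a modest margin, and the call was lost only when libraries were scaled by all counted reads. The same scaling also ended the calls of Slc3a2, Wars, Nars and Mars below, whose changes were of like size. Cebpg, which encodes a C/EBP partner of ATF4, had 82.0, 78.6 and 71.6 CPM in control and 149, 142 and 142 CPM with vitamin C. Its log2 change was 0.90 ± 0.07.

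Trib3, a pseudokinase gene that ATF4 induces and that feeds back on ATF4, had 7.24, 8.83 and 8.25 CPM in control and 19.7, 21.3 and 24.6 CPM with vitamin C. Chac1, the enzyme that breaks down glutathione, had 5.99, 8.63 and 8.71 CPM in control and 19.7, 22.2 and 21.0 CPM with vitamin C. Both log2 changes were 1.43 (SE 0.11 for Trib3 and 0.14 for Chac1), the largest in the regulator group. Sesn2, an inhibitor of mTORC1 that senses leucine, had a log2 change of 0.83 ± 0.07, from 35.2 ± 2.4 to 62.7 ± 2.7 CPM (SD, n = 3).

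Not every stress gene went with them. Ddit4, another inhibitor of mTORC1, was lower, at 3.14, 3.13 and 3.56 CPM in control and 2.29, 1.84 and 2.04 CPM with vitamin C, a log2 change of -0.67 ± 0.15. Atf3, a stress-induced repressor, had a log2 change of -0.17 ± 0.06, and this call was lost with DESeq2 and with 7 other alternatives, including leaving out any 1 control library. Ddit3, which encodes the pro-apoptotic factor CHOP, had 16.6 ± 0.9 CPM in control and 16.7 ± 1.8 CPM with vitamin C. Its log2 change was 0.01 ± 0.10. The sign turned by library size without TMM, and without VitC replicate 2, VitC replicate 3 or control replicate 3. Cebpb had a log2 change of -0.38 ± 0.14 that did not pass the threshold here and passed it under 4 alternatives. Nupr1, a stress-induced chromatin protein gene, had 0 reads in every RNA library.

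In the enzymes of serine, glycine and one-carbon metabolism, 5 of 6 tested members were higher and the median log2 change was 1.02. Serine is made from a glycolytic intermediate by PHGDH, PSAT1 and PSPH in that order, and its carbon enters the mitochondrial folate cycle through SHMT2, MTHFD2, MTHFD1L and ALDH1L2. The 3 steps of serine synthesis differed. Phgdh had a log2 change of 0.24 ± 0.07, a call that 5 alternatives ended, leaving out control replicate 1, control replicate 2 or VitC replicate 3 among them. Psat1 had 53.4, 56.1 and 55.6 CPM in control and 122, 120 and 120 CPM with vitamin C, a log2 change of 1.13 ± 0.05. Psph had 16.1 ± 0.5 and 14.8 ± 1.5 CPM, with overlapping groups and no call.

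In the mitochondrial folate branch, Aldh1l2, which oxidises formyl-tetrahydrofolate, had 7.35, 7.27 and 8.58 CPM in control and 35.7, 34.5 and 36.2 CPM with vitamin C. That is 4.60-fold, a log2 change of 2.20 ± 0.08, the largest of the group, with all 3 VitC values within a narrow band. Mthfd2 had 37.2, 36.7 and 35.9 CPM in control and 88.9, 92.6 and 98.6 CPM with vitamin C, a log2 change of 1.35 ± 0.06. Mthfd1l had a log2 change of 0.91 ± 0.10.

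The 2 members found among the asparagine, alanine, proline and cysteine enzymes were both higher. Gpt2, the mitochondrial alanine transaminase, had a log2 change of 0.69 ± 0.09. Pycr1, the last enzyme of proline synthesis, had 0.804, 0.650 and 0.837 CPM in control and 1.85, 1.23 and 1.27 CPM with vitamin C, a log2 change of 0.93 ± 0.24. The groups did not overlap, but the gene had few reads (20 in its lowest library), VitC replicate 1 was the highest, and the call was lost without control replicate 2.

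All 8 amino acid transporters were higher, with log2 changes of 0.19 to 3.59 and a median of 0.94. Slc7a11, the light chain of the cystine/glutamate exchanger xCT, had 2.71, 1.57 and 1.72 CPM in control and 24.9, 23.8 and 23.4 CPM with vitamin C. That is 12.1-fold, a log2 change of 3.59 ± 0.16, the largest of all members. Its heavy chain partner Slc3a2 had a log2 change of 0.39 ± 0.06, from 168 ± 6 to 221 ± 15 CPM (SD, n = 3).

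Slc7a1, the carrier of cationic amino acids such as arginine, had 40.9, 41.1 and 44.1 CPM in control and 140, 118 and 104 CPM with vitamin C, a log2 change of 1.52 ± 0.10. The treated libraries spread more than the controls, with VitC replicate 1 the highest, and none reached down to the control range. Slc6a9, a glycine transporter, and Slc1a4, a carrier of serine, alanine and cysteine, both had a log2 change of 1.06 (SE 0.07 and 0.08). Slc1a5, which carries glutamine, had 0.81 ± 0.07, and Slc7a5, the leucine carrier that also pairs with Slc3a2, had 0.53 ± 0.07. Slc38a2, which takes up small neutral amino acids, had the smallest change of the transporters, 0.19 ± 0.07, and 7 alternatives ended its call, leaving out VitC replicate 2, VitC replicate 3, control replicate 2 or control replicate 3 among them.

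Stc2, a secreted glycoprotein gene of the stress response, had 48.0, 47.3 and 54.1 CPM in control and 221, 169 and 202 CPM with vitamin C, a log2 change of 1.99 ± 0.10. Vldlr, a lipoprotein receptor, had 19.2, 20.5 and 17.8 CPM in control and 52.0, 58.8 and 59.1 CPM with vitamin C, a log2 change of 1.56 ± 0.08.

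Of the 7 tRNA synthetases on the list, 6 were higher, all by less than a doubling. Eprs, the bifunctional enzyme for glutamate and proline, had 653, 670 and 648 CPM in control and 1285, 1271 and 1279 CPM with vitamin C, a log2 change of 0.96 ± 0.05. This was the largest change of the group, with a small spread in both conditions. Gars, for glycine, followed with 0.55 ± 0.06, and Mars, Wars and Nars had 0.37 ± 0.07, 0.35 ± 0.06 and 0.32 ± 0.06. Aars, for alanine, had 0.18 ± 0.06, and 6 alternatives ended that call, leaving out control replicate 1, control replicate 2, VitC replicate 2 or VitC replicate 3 among them. Sars, for serine, had -0.01 ± 0.05, with overlapping groups and a sign that turned under RLE size factors.

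Lists of neighbouring pathways, set beside the members with the earlier results known, went more mixed ways. Of 9 other cytosolic tRNA synthetases, 4 were higher (Cars, Yars, Lars and Tars) and 1 was lower, with a median log2 change of 0.09. Cars, for cysteine, had 91.1, 96.4 and 95.9 CPM in control and 157, 165 and 159 CPM with vitamin C, a log2 change of 0.76 ± 0.05, and Yars, for tyrosine, had 0.71 ± 0.06. Of 12 mitochondrial tRNA synthetases, 0 were higher by edgeR (1 by DESeq2, and 2 by edgeR at an unadjusted p under 0.05) and 3 were lower (Aars2, Iars2 and Pars2). The call of Aars2 was lost without control replicate 2 or 3 and with DESeq2. Pars2 had the largest fall, with a log2 change of -0.62 ± 0.14. Fars2 and Wars2 of that list were not called, and VitC replicate 1 was the highest library in both, at 108 CPM against 50.5 and 49.8 CPM in the other treated libraries for Fars2, and at 28.4 against 16.9 and 16.2 CPM for Wars2.

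Of 19 other ATF4 targets tested, 8 were higher and 6 lower, with a median log2 change of 0.17. Fam129a, an inhibitor of cell death under stress, had the largest rise, 1.35 ± 0.10, followed by Ddr2 (1.09 ± 0.21) and Vegfa (1.05 ± 0.08). Slc38a1, a glutamine carrier, had the largest fall, -1.13 ± 0.06, from 52.8, 52.1 and 54.3 CPM to 24.9, 24.9 and 22.9 CPM, and is of the same family as Slc38a2. Among 13 sensors and eIF2 genes, 5 were higher and 2 lower. The largest change was that of Oma1, a mitochondrial stress protease, with a log2 change of -0.58 ± 0.11. Eif2ak3, the kinase PERK of the endoplasmic reticulum, had 0.37 ± 0.06 and Eif2ak4, the kinase GCN2 that senses uncharged tRNA, -0.02 ± 0.07 without a call.

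Of the 12 chaperones and unfolded protein sensors of the endoplasmic reticulum, 1 was higher and 2 were lower. Hspa5, the chaperone BiP, had a log2 change of -0.22 ± 0.07 and Calr, calreticulin, -0.19 ± 0.06. The call of Hspa5 was lost without control replicate 2 or control replicate 3, and that of Calr without any 1 control library or without VitC replicate 2 or 3. Of 13 targets of NRF2, the oxidative stress factor that also acts on Slc7a11, 1 was higher and 3 were lower. Txnrd1, thioredoxin reductase, had 0.24 ± 0.05, while Prdx1, a peroxiredoxin, had -0.53 ± 0.07. Of 11 other serine, glycine and folate enzymes, 2 were higher and 3 lower, with Amt at 0.57 ± 0.11. Of 7 other proline, glutamate and aspartate enzymes, 2 were higher and 2 lower, with Pycrl, a cytosolic relative of Pycr1, at -0.55 ± 0.09.

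**Figure D2:**
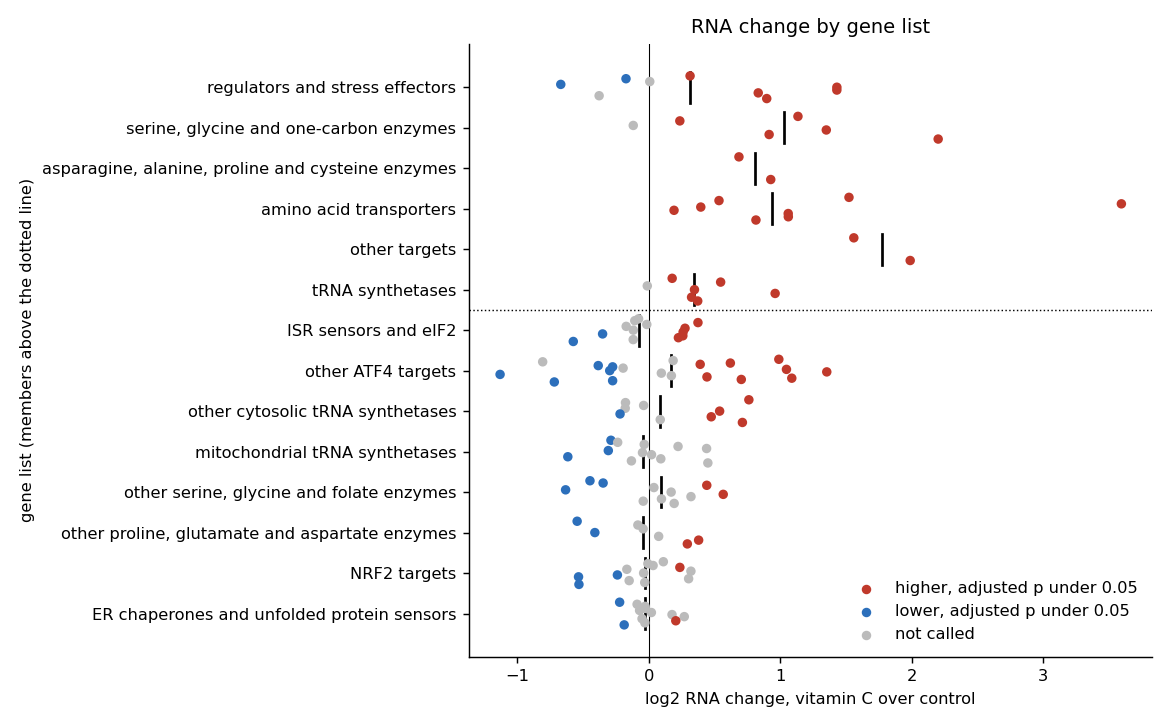
Log2 RNA change, vitamin C over control, of each tested member by role (above the dotted line) and of each tested gene of the 8 neighbouring lists (below it), coloured by call, with a vertical bar at the list's median. The medians of the member groups lie between 0.31 and 1.77, and those of the neighbouring lists between -0.08 and 0.17.

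Schwann cell markers were abundant in every library, with a summed level of 12067 to 12285 CPM over 10 genes in control and 10482 to 11782 CPM with vitamin C (library-size CPM for the marker sums). Of the fibroblast markers, Dcn and Dpt had 0 reads in every library, and the 5 genes summed to 4.79 to 5.30 CPM in control and 2.21 to 2.67 CPM with vitamin C. The 4 macrophage markers summed to at most 1.79 CPM in any library. The 3 endothelial markers summed to 1.41 to 1.86 CPM in control and 2.98 to 4.03 CPM with vitamin C, with Cdh5 at 0 reads in every library. The 4 neuronal markers summed to 61.3 to 72.6 CPM in control and 49.4 to 68.0 CPM with vitamin C, with Tubb3 higher (log2 change 0.93 ± 0.12) and Nefl lower (-1.18 ± 0.13). Skeletal muscle markers moved with the members, as all 4 tested (Myod1, Myh3, Acta1 and Chrna1) were higher and the 5 markers summed to 109 to 159 CPM in control and 432 to 472 CPM with vitamin C. The 6 pericyte and smooth muscle markers went from 55.7 to 56.6 CPM up to 102 to 118 CPM, of which Pdgfrb, also a gene of other mesenchymal cells, was nearly all. The part of these cell types in the changes of the members was not tested.

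For 5-hydroxymethylcytosine, 99 of the 205 member peaks had more hMeDIP reads with vitamin C and 44 had fewer (edgeR, adjusted p under 0.05 over all peaks). Of all 215951 peaks, 36.9% were higher and 36.3% lower. Peaks in genes leaned upward in general, since in gene bodies 44.5% of all peaks rose and 28.4% fell. Of the 160 member peaks there, 48.8% rose and 21.9% fell. The median log2 change was 0.25 over the member peaks, 0.18 over all gene body peaks and 0.05 over all peaks. When libraries were scaled by all counted reads, the median of all peaks moved to 0.49, 60.1% of all peaks were higher and 23.6% lower, and the member counts became 154 higher and 13 lower. With DESeq2, 55 member peaks were higher and 32 lower, where 20.2% of all peaks were higher and 31.8% lower. Scaling by all counted reads includes counts outside peaks, which held 64.3% to 69.2% of hMeDIP counts in control and 56.1% to 59.2% with vitamin C. Directions below are therefore relative to the bulk of peaks.

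The call of a peak also went with its place in the deposited list. In the first 30% of the list, 2.88% of all peaks were higher and 87.2% lower, and of the 16 member peaks there 0 were higher and 14 lower. In the rest, 51.4% of all peaks were higher and 14.6% lower, and of the 189 member peaks there 99 (52.4%) were higher and 30 (15.9%) lower. The member shares are close to those of all peaks on both sides of this line, which was set after the order was seen. No label or header says how the list was put together, and the part of list order in the calls was not tested.

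**Figure D3:**
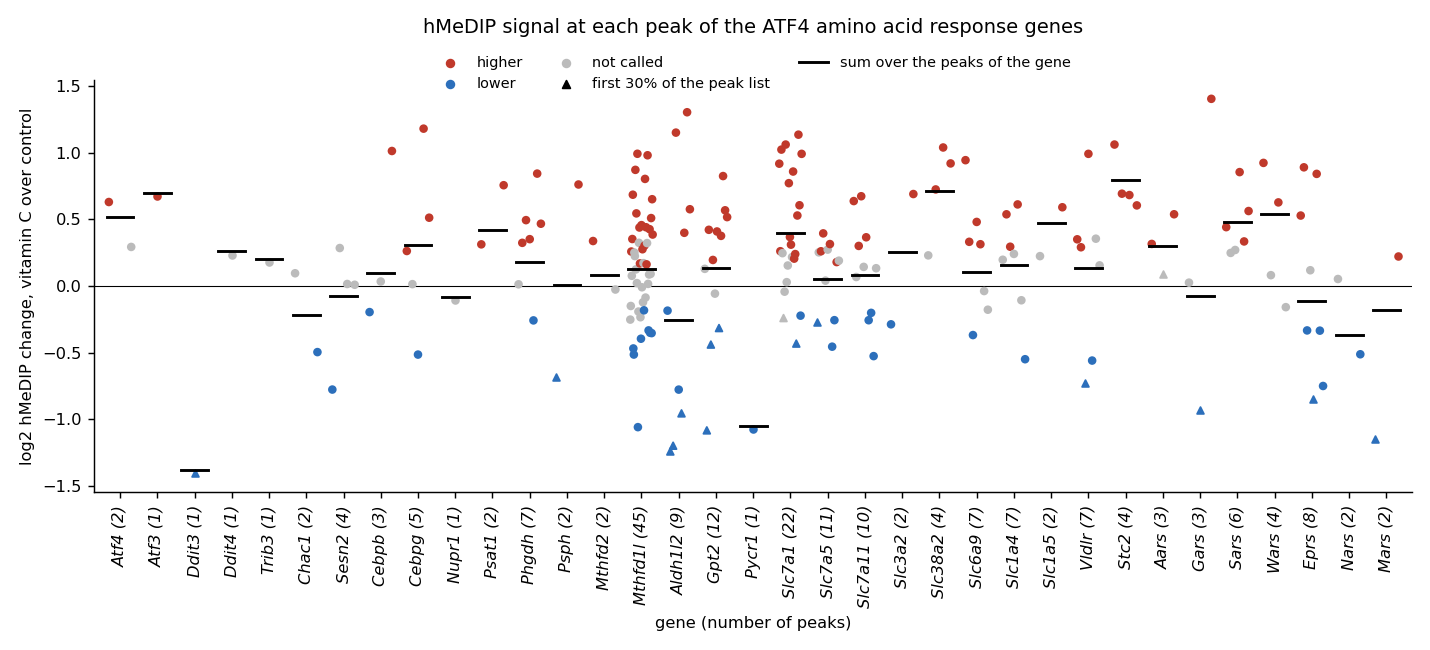
Log2 hMeDIP change at each of the 205 member peaks, ordered within a gene by distance from the start, coloured by call, with triangles for peaks in the first 30% of the deposited list and a black line at the change of the gene's summed reads. Stc2 and Slc38a2 have all their peaks above 0, whereas Aldh1l2 and Eprs have called peaks on both sides.

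Summed over the peaks of each gene, hMeDIP reads were higher for 18 of the 35 members and lower for 6, where 37.3% of the 17003 genes with peaks were higher and 37.3% lower. That background includes 6982 genes not tested in RNA, of which 22.9% were higher and 53.0% lower. Among genes tested in RNA, 43.7% to 52.9% were higher and 22.8% to 29.6% lower, depending on the RNA call. The member share is near that of these genes. Scaled by all counted reads, the members came to 28 higher and 2 lower, where 64.9% of all genes with peaks were higher and 17.5% lower. Levels are given for the sum of replicates 1 and 3 and then for replicate 2. Gene sums are CPM of the reads in peaks that carry a gene, and single peaks are CPM of the reads in all peaks. The CPM of a sum and of a peak therefore cannot be compared with each other. Peak positions are those of the deposited list, and its build is not named in the labels or headers.

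The largest sums that were higher belonged to Stc2, Slc38a2 and Atf3. Stc2 had 40.8 and 38.8 CPM in control and 71.6 and 67.3 CPM with vitamin C, a log2 change of 0.80 ± 0.05 (edgeR adjusted p = 1.4e-16, n = 2), and all 4 of its peaks were called higher. Its strongest peak, 10:16543865-16546608, labelled a promoter within 3 kb, had 6.11 and 5.87 CPM in control and 13.2 and 11.6 CPM with vitamin C, a log2 change of 1.06 ± 0.08. Stc2 was thus called higher in both layers.

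Slc38a2 had 47.3 and 43.2 CPM in control and 75.3 and 75.4 CPM with vitamin C, a log2 change of 0.72 ± 0.05 (edgeR adjusted p = 8.8e-16), beside an RNA change of 0.19. Atf3 had 1 peak in its gene body, 13:109816449-109822466, the longest of the members at 6017 bases. As a peak it had 35.1 and 34.2 CPM in control and 54.4 and 57.1 CPM with vitamin C. The log2 change was 0.68 ± 0.05 as a peak and 0.70 ± 0.04 as a gene sum. The RNA change of Atf3 was -0.17, in the other direction.

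In the transporter group, Slc7a1 had 22 peaks, of which 14 were higher and 2 lower, and a summed log2 change of 0.40 ± 0.03 (edgeR adjusted p = 1.1e-13). Of its promoter peaks, the one at 12:8084044-8085592, 707 bases from the start, had 4.89 and 5.19 CPM in control and 9.52 and 9.25 CPM with vitamin C (log2 change 0.92 ± 0.09). The one at 12:8087143-8088095 had a log2 change of 1.02 ± 0.11. Slc7a11, the member with the largest RNA change, had 10 peaks, of which 4 were higher and 3 lower, and its summed change of 0.08 ± 0.04 was not called (edgeR adjusted p = 0.08), though it was called without control replicate 3 (0.14) and when scaled by all counted reads (0.53).

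The 10 Slc7a11 peaks differed along the gene. The peak at 2:139527260-139527959, 553 bases from the start, had 2.06 and 2.21 CPM in control and 3.30 and 3.25 CPM with vitamin C, a log2 change of 0.64 ± 0.14. The other 3 that were higher lay 9148, 15618 and 21842 bases from the start, with log2 changes of 0.30, 0.67 and 0.37. The 3 that were lower lay 52171, 56529 and 60428 bases from the start, with log2 changes of -0.26, -0.20 and -0.53, which became 0.18, 0.24 and -0.07 when scaled by all counted reads. The calls thus split by distance within this gene, which was noticed after the values were seen. A peak farther out than these, 67973 bases from the start, was not called, at 0.13. Over input, 1 peak of the gene was called higher and 1 lower.

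In the other transporters, the summed change was 0.47 ± 0.09 for Slc1a5, 0.25 ± 0.08 for Slc3a2, 0.16 ± 0.05 for Slc1a4 and 0.10 ± 0.04 for Slc6a9, all called, and 0.05 ± 0.04 for Slc7a5, not called. Leaving out VitC replicate 2 ended the calls of Slc3a2, Slc1a4 and Slc6a9. Slc6a9 held a peak at its start, 5:136682758-136684277, with a log2 change of 0.33 ± 0.10, lost without VitC replicate 2.

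Among the one-carbon enzymes, the RNA and hMeDIP orders differed. Aldh1l2 had 9 peaks, of which 4 were higher and 5 lower, and fewer summed reads with vitamin C, 80.7 and 83.8 CPM against 68.9 and 67.8 CPM, a log2 change of -0.26 ± 0.04 (edgeR adjusted p = 1.4e-06) that turned to 0.16 when scaled by all counted reads. Its peak of smallest p, 7:26394354-26394916 in the gene body, had 6.77 and 7.99 CPM in control and 3.51 and 2.48 CPM with vitamin C, a log2 change of -1.20 ± 0.12. This peak and 2 others of the 5 lower ones stood in the first 30% of the list. Within the same gene, the peak at 7:26424714-26425207 had 1.29 and 0.893 CPM in control and 2.95 and 2.78 CPM with vitamin C, a log2 change of 1.30 ± 0.17.

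Mthfd1l, the member with the most peaks, had 19 of 45 higher and 8 lower, with peak changes of -1.06 to 0.99 and a summed change of 0.13 ± 0.03. Psat1 had both of its peaks higher, one of them at its start (1:233139688-233140904) with 8.24 and 8.25 CPM in control and 9.95 and 10.7 CPM with vitamin C (log2 change 0.31 ± 0.08). Phgdh had 5 of 7 peaks higher and 1 lower. The summed changes of Mthfd2 (0.08 ± 0.06) and Psph (0.00 ± 0.11) were not called.

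Among the enzymes of alanine and proline, Pycr1 had 1 peak, 10:109822952-109823659, labelled a promoter within 3 kb, at 3.74 and 4.08 CPM in control and 1.82 and 1.83 CPM with vitamin C. Its log2 change was -1.07 ± 0.14 (edgeR adjusted p = 4.6e-09), while its RNA was higher. Gpt2 had 7 of 12 peaks higher and 3 lower. All of the 3 lower ones stood in the first 30% of the list, among them the peak 745 bases from the start, 19:22632605-22633027, with a log2 change of -1.08 ± 0.15.

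Among the regulators, Ddit3 had 1 peak, 7:70581337-70581736, at 2.94 and 3.27 CPM in control and 1.27 and 0.942 CPM with vitamin C. Its log2 change of -1.41 ± 0.17 (edgeR adjusted p = 7.9e-10) was the largest fall of the member peaks, at a gene whose RNA did not pass the threshold. It also stood in the first 30% of the list. Atf4 had 2 peaks, of which 1 was higher (7:121478937-121479516, log2 change 0.63 ± 0.15), and a summed change of 0.52 ± 0.12.

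Cebpg had 3 of 5 peaks higher and 1 lower, with a summed change of 0.31 ± 0.05. Sesn2 had a peak 487 bases from its start, 5:150704350-150704858, that was lower by a log2 change of -0.78 ± 0.14, while its RNA was higher. Chac1 had 2 promoter peaks, at log2 changes of 0.10 ± 0.14, not called, and -0.50 ± 0.12, called lower. Its summed fall of -0.22 ± 0.10 passed the threshold narrowly and was lost without any 1 of control replicate 1, control replicate 2, VitC replicate 2 or VitC replicate 3, and turned to 0.18 when scaled by all counted reads. The single peaks of Trib3 and Ddit4, both promoter peaks, were not called, at 0.18 ± 0.14 and 0.23 ± 0.13.

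Among the tRNA synthetases, the summed reads were higher for Wars (log2 change 0.54 ± 0.07), Sars (0.48 ± 0.06) and Aars (0.30 ± 0.07) and lower for Nars (-0.37 ± 0.08) and Eprs (-0.11 ± 0.05). The signs of Nars and Eprs turned when scaled by all counted reads, to 0.05 and 0.31. The call of Eprs was lost without control replicate 1 or 2 or without VitC replicate 1 or 2. Eprs, whose RNA had the largest change of the group, had 3 of 8 peaks higher and 4 lower. Its 2 promoter peaks were both higher (0.53 ± 0.13 and 0.89 ± 0.17) and its peak of smallest p, in the gene body at 13:103365158-103365795, was lower (-0.75 ± 0.10). Mars held 1 lower peak 361 bases from its start, 7:70601754-70602144, with a log2 change of -1.15 ± 0.14, in the first 30% of the list. Gars held the largest rise of the member peaks, 4:85274126-85274593 in the gene body, from 1.20 and 1.23 CPM to 3.04 and 3.47 CPM, a log2 change of 1.40 ± 0.16. Its summed reads were not called (-0.07 ± 0.08).

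At peaks labelled promoter, 21 of 45 member peaks were higher and 9 lower, where 42.7% of all 17444 promoter peaks were higher and 30.2% lower. Besides those given above, promoter peaks were lower in Cebpb (log2 change -0.20 ± 0.08), Slc7a5 (-0.27 ± 0.12) and Gpt2 (-0.44 ± 0.12). None of these was called when scaled by all counted reads. Another Cebpb promoter peak was not called (0.03 ± 0.08). Higher promoter peaks included 1 of Cebpb (1.01 ± 0.15), 1 of Wars (0.92 ± 0.11), 1 of Slc1a5 (0.59 ± 0.11) and 1 of Mthfd2 (0.34 ± 0.11). Vldlr had 2, at 0.35 ± 0.15 and 0.29 ± 0.12, both lost under several alternatives, VitC replicate 2 left out among them, beside a gene body peak at 0.99 ± 0.11.

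Set side by side, of the 28 members whose RNA was higher, the summed hMeDIP reads were higher for 16 (Stc2, Slc7a1 and Psat1 among them), lower for 5 (Aldh1l2, Chac1, Pycr1, Eprs and Nars) and not called for 7 (Slc7a11, Trib3 and Mthfd2 among them). Of all 2284 genes with higher RNA and a peak, 52.9% had higher summed hMeDIP reads and 22.8% lower. Of the 2 members with lower RNA, Atf3 had higher hMeDIP reads and Ddit4 was not called. The 3 members with the largest RNA changes, Slc7a11, Aldh1l2 and Stc2, were thus not called, lower and higher in hMeDIP.

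**Figure D4:**
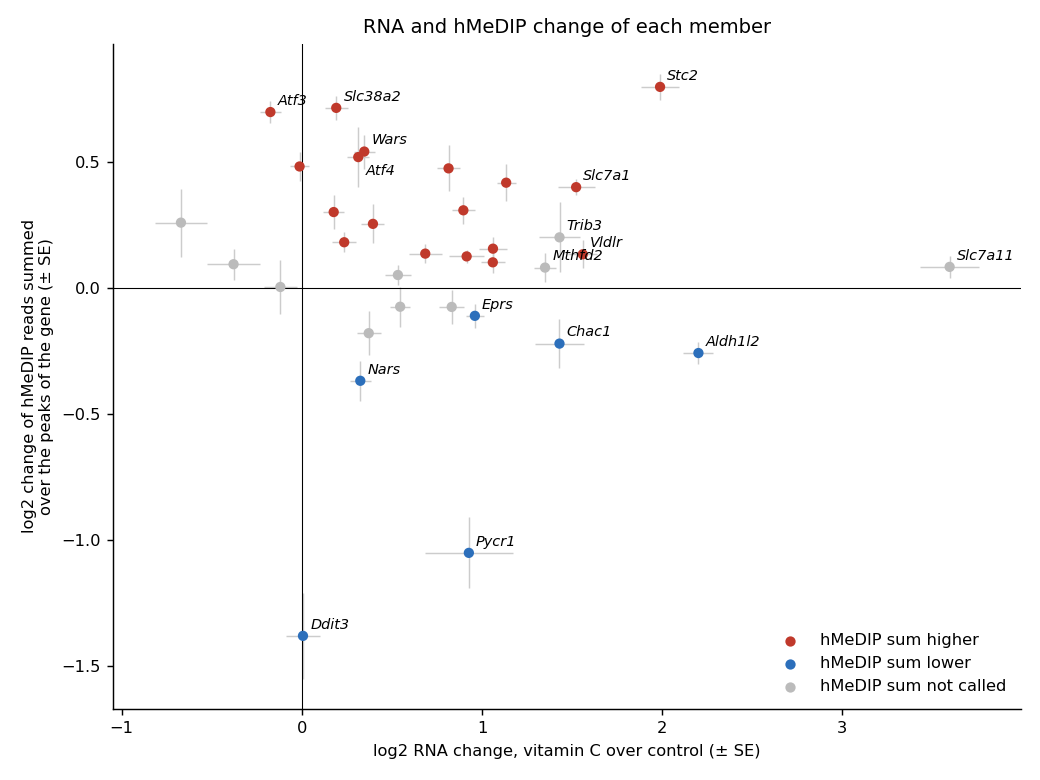
Log2 RNA change (x axis) and log2 change of hMeDIP reads summed over the gene's peaks (y axis) for the 34 members with an RNA value, each with its SE, coloured by the hMeDIP call. Slc7a11 lies far right at 0.08 on the hMeDIP axis, Stc2 at upper right, and Pycr1 and Ddit3 at the bottom.

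Input DNA of the same samples gave the background. Of the 205 member peaks, 0 differed between groups in input (edgeR quasi-likelihood test), as did 0% of all 215759 peaks tested. At an unadjusted p under 0.05 there were 12 member peaks (5.85%), against 4.86% of all peaks, and the changes ran from -0.60 to 0.79 with the lower depth of input. When the change in hMeDIP was tested against the change in input, 54 member peaks were higher and 25 lower, where 20.8% of all peaks were higher and 28.3% lower, and 26.2% and 20.9% of all gene body peaks. Of the 99 member peaks higher in hMeDIP, 53 were also called higher over input and 0 lower. Of the 44 lower ones, 24 were also called lower and 0 higher. Both fits use the same hMeDIP reads, so this overlap is no independent support for the calls. Slc7a1 had 9 peaks of higher enrichment over input and 0 of lower. Stc2 and Slc38a2 each had 3 higher and 0 lower. Aldh1l2 had 3 higher and 4 lower, and Ddit3 and Pycr1 kept their single lower peak, at log2 changes over input of -1.78 and -1.21. The promoter peaks of Slc7a11 (0.29) and at the start of Psat1 (-0.01) were not called over input.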

How the data were processed

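Raw integer counts were deposited by the authors, per gene for RNA and per peak for hMeDIP and input, with a peak list of positions and genes, per the file headers. CASAVA 1.4, Trim Galore, STAR, BWA and HTSeq are named in the submitters' processing notes. The peak caller, genome build and strand setting are named neither in labels nor in headers, so overlapping genes and near-identical copies cannot be told apart. Entries that name no gene or peak held 42.3% to 53.9% of RNA, 56.1% to 69.2% of hMeDIP and 91.3% to 91.6% of input counts and were left out. In hMeDIP every VitC library (56.1% to 59.2%) had a smaller share of these than every control (64.3% to 69.2%).

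Counts were tested over all features with edgeR 4.0.16 (R 4.3.3; quasi-likelihood F test, TMM factors, default filter, Benjamini-Hochberg adjusted p under 0.05) with treatment as the single term. RNA, hMeDIP and input were fitted apart, and enrichment over input in a fit of both with a term per sample. Errors are SE for log2 changes and SD for levels. The scripts were tested on simulated data. Alternatives were DESeq2 1.42.0, other scalings and filters, the replicate number as a block and left-out libraries. Python 3.11.15, pandas 2.3.3, numpy 2.4.6 and matplotlib 3.10.9 were used. The members, lists and tests were chosen with earlier results of these data known. Every member with a symbol was named, with each library's value for the largest changes of a role group, up to 4 called genes per other list, and, for hMeDIP, the peak of smallest p of a gene and its promoter peaks, of which some are left out for length. Eif2ak4, Fars2, Wars2 and the Slc7a11 and Aldh1l2 peaks named by distance fall outside this rule and were picked once their values were known. The 2 groups' replicate numbers are not said to pair samples. Not every gene of the other lists is reported here.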

Additional observations from a re-analysis of the deposited data

How the results depend on the processing

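Of the 30 members called in RNA, 20 kept their call and direction under all 13 alternatives, and no called member changed sign. The count of higher members stayed within 24 to 28 and that of lower members within 1 to 3 when 1 library was left out. There was 1 lower member with DESeq2, with RLE size factors and when scaled by all counted reads, and the last of these had 20 higher members, the fewest of any alternative. In hMeDIP the scaling moved most values: scaled by all counted reads, 154 member peaks were higher and 13 lower, and 28 gene sums were higher and 2 lower, where 64.9% of all genes with peaks were higher and 17.5% lower. With DESeq2, 55 peaks were higher and 32 lower. Leaving out hMeDIP replicate 1 or 3 of a group gave 93 to 100 higher and 39 to 43 lower peaks. Gene sums came to 16 to 20 higher and 4 to 7 lower, and peaks over input to 47 to 65 higher and 15 to 22 lower. Counts without replicate 2 are not given, since 1 summed sample then remains in that group. Restricting to peaks after the first 30% of the list, an alternative chosen after seeing the data, left 99 higher and 30 lower.

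Replicate numbers were shared only as numbers: in RNA, the deviations of same-numbered samples correlated at 0.32, 0.25 and 0.04. With the replicate number as a block, 27 members were higher and 3 lower in RNA, 95 peaks higher and 46 lower in hMeDIP (all 6 libraries), 18 gene sums higher and 6 lower, and 0 input peaks were called.

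Scaled by all counted reads, 35 of the 205 member peaks turned sign, 19 of them called lower without it and 9 called higher with it. The values that follow are log2 changes of RNA, of gene sums and of named peaks (the peak of smallest p of a gene and its promoter peaks) that turned sign. Scaled by all counted reads, hMeDIP sums became 0.18 for Chac1, 0.32 for Sesn2, 0.31 for Nupr1, 0.16 for Aldh1l2, 0.35 for Gars, 0.31 for Eprs, 0.045 for Nars and 0.24 for Mars. Peaks became 0.165 and 0.0084 for Slc7a5, 0.18 for Mthfd1l, 0.27 for Cebpb and 0.31 for Nupr1. In RNA, Ddit3 became -0.051 by library size without TMM and ran from -0.061 to 0.089 over left-out libraries. Sars became 0.0057 with RLE and ran from -0.034 to 0.020. The hMeDIP sum of Psph became -0.0019 with DESeq2 and -0.0051 with RLE and ran from -0.029 to 0.040, those of Sesn2 and Nupr1 from -0.098 to 0.0031 and from -0.16 to 0.011. A Cebpg peak became -0.051 with DESeq2 and -0.023 with RLE and ran from -0.047 to 0.073. A Phgdh peak became -0.022 with RLE, -0.012 with all 6 libraries apart and -0.019 with the block and ran from -0.067 to 0.069. A second Cebpb peak became -0.0011 with RLE and ran from -0.0016 to 0.071, and a Nars peak ran from -0.070 to 0.15. Of the values listed, the sums of Sesn2, Gars and Eprs passed the threshold under that scaling, and the cause was not tested.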
